A study of Mus musculus with 6 samples.

Results

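The nuclear genes for the mitochondrial respiratory chain and ATP synthase were examined in mouse testis RNA-seq. The set takes every gene of the deposited table whose symbol begins with Ndufa, Ndufb, Ndufc, Ndufs or Ndufv and a digit, or with Uqcr, Atp5, Cox4, Cox5, Cox6, Cox7 or Cox8, together with Sdha, Sdhb, Sdhc, Sdhd and Cyc1. Symbols ending in -ps were left out, but 4 genes that GENCODE M21 annotates as processed pseudogenes, Ndufa11b, Ndufb4c, Ndufs6b and Cox6c2, pass the symbol rule and are among the members. This gave 88 of 36652 genes: 38 of complex I, 4 of complex II, 9 of complex III, 20 of complex IV and 17 of complex V. All 88 were tested. The normalized count, a read count divided by the library's scaling factor, averaged 10 or more over the 6 libraries for 84 of them. The samples were whole testes of 8-week-old mice, 3 libraries labelled WT and 3 labelled Ccdc117ko. The labels give no strain, allele, driver or treatment for either group, and do not say whether replicates came from different animals. The p-values therefore cover the scatter of these libraries, which may be technical.

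The respiratory chain sits in the inner mitochondrial membrane. Complex I takes electrons from NADH and complex II from succinate, both pass them through ubiquinone to complex III, cytochrome c carries them to complex IV, and complex IV hands them to oxygen. Complexes I, III and IV pump protons, and complex V, the ATP synthase, makes ATP from the gradient. A few core subunits are made from mitochondrial DNA, and the rest come from nuclear genes. The genes described here are those that the symbol rule takes, which leaves out Ndufab1, for example. Germ cells entering meiosis switch on their own isoforms of several subunits, among them COX6B2, COX7B2 and COX8C, and a testis form of cytochrome c.

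The 6 libraries held 35791616 to 43461692 reads. Ccdc117 itself, a gene for a coiled-coil protein, stood at 3657, 3826 and 3931 normalized counts in WT and at 3478, 3772 and 3908 in Ccdc117ko. This gives 3805 ± 138 and 3719 ± 220 (SD, n = 3 each; log2 fold change -0.03, SE 0.05, limma adjusted p = 0.763). A total over the gene does not check the genotype, so higher and lower refer below to libraries as labelled, Ccdc117ko relative to WT. A gene was called when its limma p, adjusted over all 32783 genes tested, was under 0.05.

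Of the 88 genes, 9 were higher in the Ccdc117ko libraries and 0 were lower. The called genes were Ndufa5, Ndufa6, Ndufb10 and Ndufv1 of complex I, Uqcrfs1 of complex III, Cox5b, Cox6a1 and Cox6b2 of complex IV, and Atp5mpl of complex V. They make up 10.2% of the 88, where 3.70% of all tested genes were called higher and 3.10% lower. At an unadjusted limma p under 0.05, 33 members were higher and 3 lower, beside 3633 higher and 3803 lower of all 32783 genes tested. Changes of the called members were small, from 1.12-fold for Ndufv1 to 1.32-fold for Ndufa5. With 1 library left out the count dropped to 3 without WT replicate 1 and to 0 without WT replicate 2 or 3 or without Ccdc117ko replicate 1, 2 or 3. The 3 were Ndufa5, Cox6b2 and Uqcrfs1 (limma adjusted p = 0.0472 for the last). Of all 32783 genes the fit without WT replicate 1 called 789 higher and 479 lower. In the other 5 fits 44, 22, 25, 24 and 36 members, in that order, still had an unadjusted limma p under 0.05. Of all 32783 genes 6742, 5817, 6723, 5846 and 6598 did, in the same order. Over all 32783 genes those 5 fits called 2 to 12 higher and 4 to 13 lower, so few genes of any kind passed, and the log2 fold changes of the called members stayed near their values (Ndufa5 0.39 to 0.43, Ndufv1 0.14 to 0.18 over the 6 fits).

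The set as a whole, with the 9 called members included, leaned the same way, and the other 79 did not pass the test. Of the 88 log2 fold changes 74 were above 0, against 50.2% of all genes tested, and their median was 0.10, against 0.0012 for all genes tested and -0.029 for the protein-coding ones. All 3 Ccdc117ko libraries lay above all 3 WT libraries for 37 members (background 13.7%) and below them for 3 (background 13.3%). The members took 0.614%, 0.642% and 0.615% of the reads of the WT libraries, and 0.663%, 0.663% and 0.646% of the reads of the Ccdc117ko libraries. The lowest Ccdc117ko share was thus near the highest WT share. The median deviation of the members from their own means was -0.06, 0.0008 and -0.08 on the log2 scale in the WT libraries and 0.08, 0.06 and 0.01 in the Ccdc117ko libraries. WT replicate 2 and Ccdc117ko replicate 3 were the nearest pair.

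**Figure D1:**
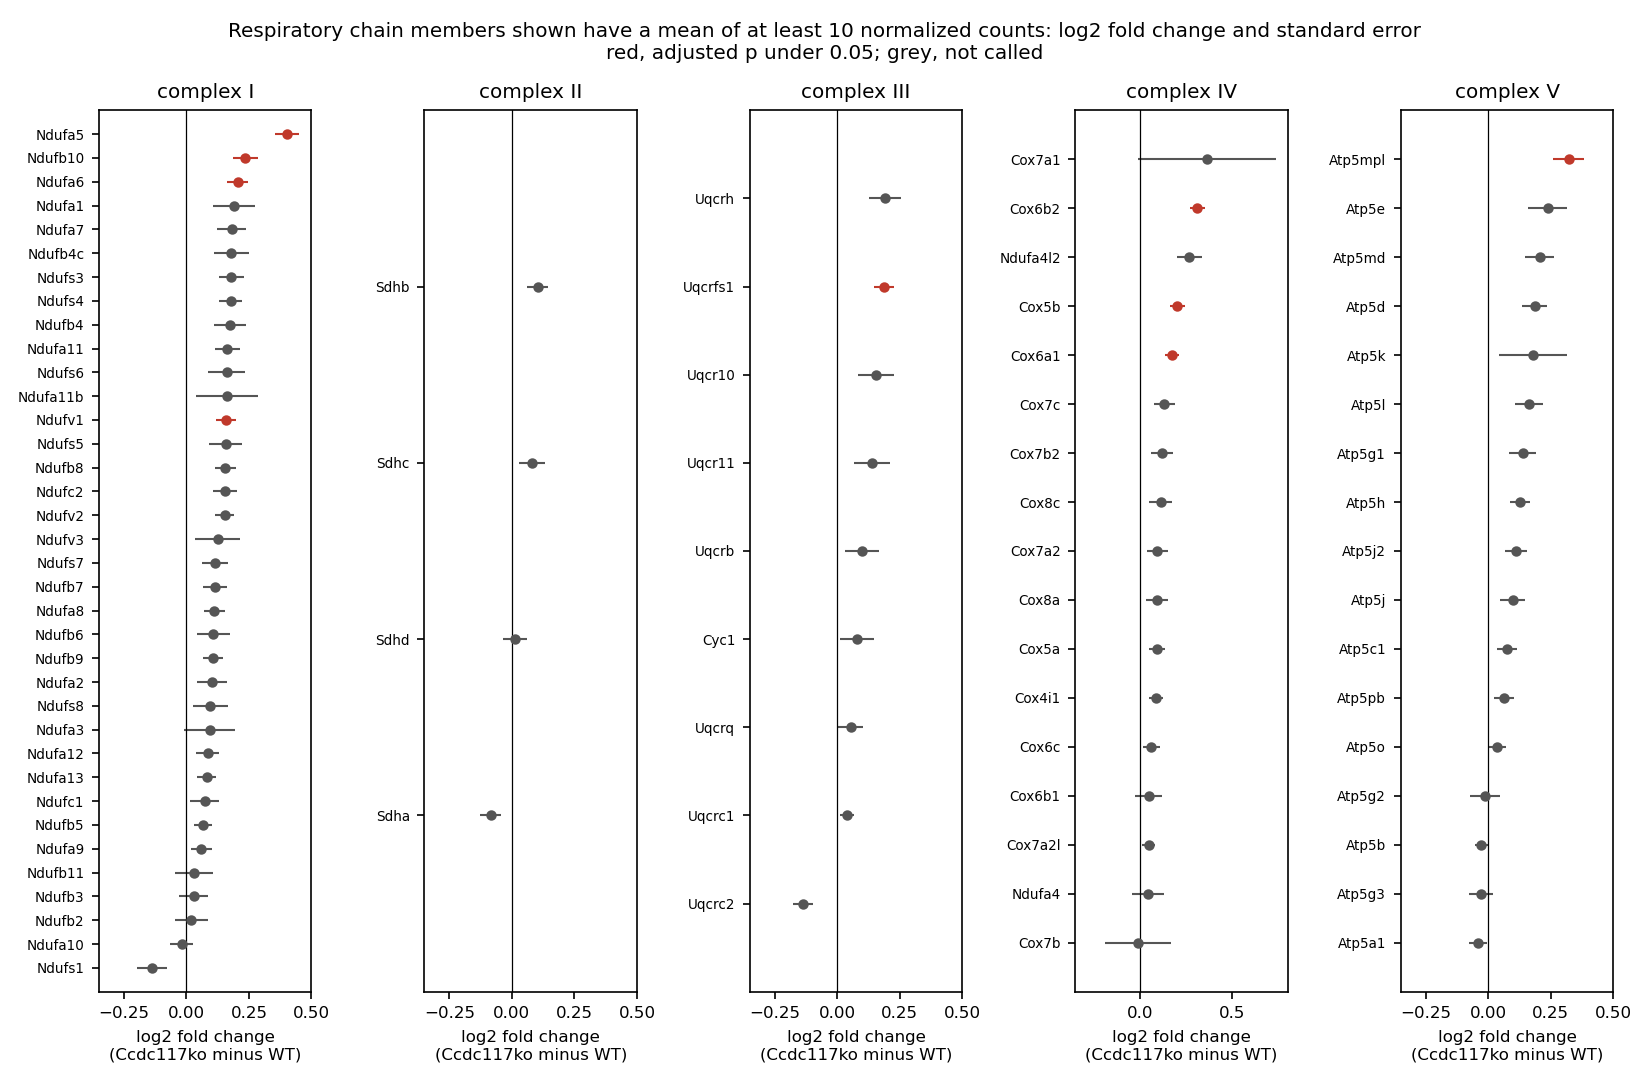
Log2 fold change (x axis, Ccdc117ko minus WT) with its standard error for members averaging 10 or more normalized counts, 1 panel per complex; the panel of complex IV has a wider axis. Red points are the 9 called members, and most grey points lie to the right of 0.

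With the test confined to genes averaging 10 or more normalized counts, which drops 4 members, 18 members were higher and 0 lower, against 8.35% of all genes so tested higher and 8.25% lower. At an unadjusted limma p under 0.05 that fit had 34 members, and 7034 of all 22878 genes. The 9 members added were Ndufa4l2, Ndufa7, Ndufb8, Ndufs3, Ndufs4, Ndufv2, Atp5d, Atp5e and Atp5md. The authors' deposited table lists 19 members as higher at an FDR under 0.05, these 18 and Uqcrh, and 1 as lower, Uqcrc2. The authors' deposited table has 5.78% of all genes higher and 5.77% lower.

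Cell type markers moved between the genotypes as well. Of 12 round spermatid markers 10 were called higher, with a median log2 fold change of 0.38, and their summed level was 73536 to 80054 normalized counts in the WT libraries and 89651 to 92569 in the Ccdc117ko libraries. Of 12 Sertoli cell markers 5 were called lower (sums 72797 to 75970 and 66989 to 69592), and of 10 spermatogonial markers 2 were called lower (sums 6729 to 7223 and 5861 to 6026). Pachytene spermatocyte markers had 2 higher and 1 lower of 12 (sums 246054 to 261186 and 265753 to 267429), elongating spermatid markers 2 higher of 12 (sums 780628 to 838302 and 818865 to 857222), and Leydig cell markers 3 higher and 2 lower of 9 (sums 68702 to 79413 and 80798 to 93822). With the length and GC correction the Sertoli calls went from 5 to 1 (2 by the shortest principal transcript), while 10 round spermatid markers (9 by the shortest principal transcript) were called higher and 2 spermatogonial markers lower. In each of these lists no marker was at 0 in all libraries. Over all tested genes 3.70% were called higher and 3.10% lower before the correction. Fits of all tested genes without WT replicate 2 or 3 or any 1 Ccdc117ko library called 2 to 12 genes higher and 4 to 13 lower. Few genes of any kind thus passed there, and the marker calls of those fits are not given here. In bulk testis, fewer cells of a type and less RNA per cell cannot be told apart, and the part of these shifts in the values of the respiratory chain genes was not tested.

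In complex I, 4 of 38 members were called higher and 34 had a log2 fold change above 0, with a median of 0.11. The 4 are 10.5% of the complex, where 3.70% of all tested genes were called higher. Ndufa5 (ENSMUSG00000023089, chr6:24518666-24528013, minus strand, mm10) encodes an accessory subunit of the matrix arm next to the quinone site. Its normalized counts were 1097, 1163 and 1109 in WT and 1433, 1512 and 1513 in Ccdc117ko, and the groups did not overlap. The mean rose from 1123 ± 35.3 to 1486 ± 45.8 (SD, n = 3 each), by 0.40 on the log2 scale (SE 0.05, limma adjusted p = 0.0121). Among genes averaging 10 or more normalized counts, Ndufa5 was called with each library left out in turn, 6 of 6 fits. With all tested genes its adjusted p was 0.0364 without WT replicate 1 and 0.0598 to 0.107 without each of the other 5 libraries.

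Ndufa6 (ENSMUSG00000022450, chr15:82350140-82354322, minus strand), another accessory subunit of the matrix arm, had 1875, 1865 and 1915 normalized counts in WT and 2255, 2164 and 2101 in Ccdc117ko. The WT values were within 50 counts of each other and all below the Ccdc117ko values. Its log2 fold change was 0.20 (SE 0.04, limma adjusted p = 0.0344). Ndufb10 (ENSMUSG00000040048, chr17:24722060-24724478, minus strand) encodes an accessory subunit of the membrane arm. It had 2345, 2304 and 2159 normalized counts in WT and 2765, 2718 and 2534 in Ccdc117ko, and replicate 3 was the lowest library of both groups. Its log2 fold change was 0.24 (SE 0.05, limma adjusted p = 0.0378).

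Ndufv1 (ENSMUSG00000037916, chr19:4007384-4012806, minus strand) encodes the subunit that binds NADH and carries the flavin through which electrons enter the chain. It had 3897, 4097 and 4040 normalized counts in WT and 4352, 4532 and 4545 in Ccdc117ko, again without overlap. Its log2 fold change of 0.16 (SE 0.04) had a limma adjusted p of 0.0497, the nearest of the called members to the threshold. Just outside it were Ndufs4 and Ndufv2, both at an adjusted p of 0.0586, followed by Ndufa4l2 of complex IV at 0.0615.

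The modules of complex I all had medians above 0. The 3 accessory subunits of the quinone module had a median log2 fold change of 0.20 with 2 called, the 6 of the NADH module 0.14, and the 19 of the membrane arm 0.11 with 1 called. Of the 7 core subunits of the matrix arm, Ndufv1 was called, 5 were above 0 and the median was 0.11. Ndufs1, which carries iron-sulphur clusters of the NADH module, had 2794, 3115 and 3124 normalized counts in WT and 2583, 2852 and 2766 in Ccdc117ko (log2 fold change -0.14, limma adjusted p = 0.215), with overlapping groups.

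Ndufv2, the partner of Ndufv1 in the NADH module, had 7181, 7151 and 6996 normalized counts in WT and 8055, 8117 and 7543 in Ccdc117ko, with no overlap (log2 fold change 0.15, SE 0.04, limma adjusted p = 0.0586). Ndufs3, a core subunit without a cluster, had 2763, 2910 and 2733 in WT and 3127, 3356 and 3034 in Ccdc117ko, also without overlap (log2 fold change 0.18, adjusted p = 0.0753). Its counts are less certain, since 39.7% of its 50-base words occur in other genes. Ndufs7 and Ndufs8, which carry the clusters that lead to the quinone, had log2 fold changes of 0.11 (adjusted p = 0.242) and 0.10 (adjusted p = 0.485).

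Accessory subunits of the NADH module all had positive fold changes. Ndufs4, whose loss is known from a mouse model of Leigh syndrome, had 1756, 1801 and 1834 normalized counts in WT and 2036, 1954 and 2103 in Ccdc117ko, with no overlap (log2 fold change 0.18, SE 0.04, limma adjusted p = 0.0586). Ndufa7, the most abundant complex I member per kilobase, had 3015, 3428 and 3138 in WT and 3761, 3671 and 3424 in Ccdc117ko (log2 fold change 0.18, SE 0.06, adjusted p = 0.112). WT replicate 2 and Ccdc117ko replicate 3 almost met, at 3428 and 3424. The other 4, Ndufv3, Ndufs6, Ndufa2 and Ndufa12, ranged from 0.08 for Ndufa12 to 0.16 for Ndufs6.

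In the membrane arm, 10 of 19 accessory subunits had no overlap with Ccdc117ko above WT, as did 13.7% of all tested genes. Besides Ndufb10, Ndufb8 had 3456, 3471 and 3334 normalized counts in WT and 3923, 3870 and 3640 in Ccdc117ko (log2 fold change 0.16, SE 0.04, limma adjusted p = 0.0710). Ndufc2 had 900, 893 and 879 in WT and 1011, 971 and 993 in Ccdc117ko (log2 fold change 0.15, adjusted p = 0.0918). Ndufa10 was the 1 subunit of the arm below 0, at -0.02 (adjusted p = 0.854), and Ndufb2 was at 0.02 (adjusted p = 0.909). Ndufa11b and Ndufs6b, annotated as processed pseudogenes, were minor, with 77.7 ± 3.86 and 9.38 ± 3.51 normalized counts in WT (SD, n = 3 each). Every 50-base word of Ndufb4c, another such pseudogene, is shared with another gene, so its value is not read.

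The X-linked members are Ndufa1 and Ndufb11 of complex I and Cox7b of complex IV, on a chromosome that is silenced in male meiosis. None of these 3 was called. Ndufa1 had 417, 378 and 366 normalized counts in WT and 478, 437 and 410 in Ccdc117ko (log2 fold change 0.19, SE 0.08, limma adjusted p = 0.230). Ndufb11 had 390 ± 18.8 and 399 ± 26.5 (SD, n = 3 each) and overlapped between the groups. Cox7b had 195, 174 and 126 in WT and 188, 148 and 149 in Ccdc117ko, with wide overlap.

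Complex II had 0 of 4 members called in either direction by limma. At an unadjusted limma p under 0.05, 1 was higher and 0 lower, beside 3633 higher and 3803 lower of all 32783 genes tested. Sdhb, its iron-sulphur subunit, had 3028, 2908 and 2908 normalized counts in WT and 3213, 3231 and 3054 in Ccdc117ko (log2 fold change 0.10, adjusted p = 0.185). Sdha, the flavoprotein that oxidises succinate, had 5504, 5832 and 5959 in WT and 5336, 5360 and 5597 in Ccdc117ko (log2 fold change -0.09, adjusted p = 0.277). The 2 catalytic subunits thus had fold changes of opposite sign, neither of which passed the test. The membrane anchors Sdhc and Sdhd had log2 fold changes of 0.08 and 0.01.

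In complex III, Uqcrfs1 was the 1 called member of 9, and 8 were above 0 (median 0.10). This 1 call is 11.1% of the complex, where 3.70% of all tested genes were called higher. Uqcrfs1 (ENSMUSG00000038462, chr13:30540308-30545362, minus strand) encodes the Rieske iron-sulphur protein, which accepts electrons from ubiquinol. It had 3733, 3595 and 3496 normalized counts in WT and 3997, 4162 and 4162 in Ccdc117ko, with no overlap, and rose by 0.19 on the log2 scale (SE 0.04, limma adjusted p = 0.0362). Cyc1, the cytochrome c1 that takes electrons next, overlapped between the groups (1786 ± 165 and 1881 ± 60.7, SD, n = 3 each).

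The 2 core proteins of complex III, which face the matrix and hold no redox centre, did not share a direction. Uqcrc1, the most abundant member of the complex per kilobase, had a mean of 7683 ± 89.6 normalized counts per kilobase in WT and 7889 ± 103 in Ccdc117ko (log2 fold change 0.04, limma adjusted p = 0.511). Uqcrc2 had 3739, 3947 and 3897 normalized counts in WT and 3601, 3460 and 3474 in Ccdc117ko, with all Ccdc117ko values lower. Its log2 fold change was -0.14 (SE 0.04) with a limma adjusted p of 0.0793, while the authors' deposited table gives it an FDR of 0.0207. Of the exon bases of Uqcrc2, 19.7% lie opposite exons of Pdzd9 on the other strand. Whether the authors counted by strand is not stated in the labels, so reads of the 2 genes may not be separated.

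The 5 small subunits of complex III were all above 0, with a median of 0.14, and none passed the test. At an unadjusted limma p under 0.05, 2 of the 9 members of the complex were higher and 1 lower. Of all 32783 genes tested, 3633 were higher and 3803 lower at that level. Uqcrh, the hinge protein that binds cytochrome c1, had 1495, 1737 and 1705 normalized counts in WT and 1886, 1927 and 1818 in Ccdc117ko, without overlap (log2 fold change 0.19, SE 0.06, limma adjusted p = 0.119). The authors' deposited table gives Uqcrh an FDR of 0.0253. Uqcr10 and Uqcr11 were at 0.15 (adjusted p = 0.249) and 0.14 (adjusted p = 0.304), Uqcrb at 0.10 and Uqcrq at 0.05, and 43.4% of the words of Uqcrb are shared with other genes.

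In complex IV, 3 of 20 members were called higher and 16 were above 0 (median 0.09). The 3 are 15.0% of the complex, where 3.70% of all tested genes were called higher. Cox6b2 (ENSMUSG00000051811, chr7:4751792-4753094, minus strand) is the testis isoform of subunit 6b, which faces the intermembrane space near the cytochrome c site. Its normalized counts were 6905, 7426 and 6805 in WT and 8737, 8691 and 8761 in Ccdc117ko. The Ccdc117ko libraries differed by under 100 counts, and all lay above the highest WT library. The mean rose from 7046 ± 334 to 8730 ± 35.2 (SD, n = 3 each), by 0.31 on the log2 scale (SE 0.04, limma adjusted p = 0.0135). Among genes averaging 10 or more normalized counts it was called in 6 of 6 fits that left 1 library out. With all tested genes its adjusted p was 0.0423 without WT replicate 1 and 0.0604 to 0.110 without each of the others.

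Cox5b (ENSMUSG00000061518, chr1:36691449-36693681, plus strand), a zinc-binding subunit on the matrix side, had 2832, 3018 and 2907 normalized counts in WT and 3341, 3420 and 3308 in Ccdc117ko. The groups did not overlap, and the log2 fold change was 0.20 (SE 0.04, limma adjusted p = 0.0295). Of its 50-base words 25.9% also occur in the predicted gene Gm11273, so its counts are less certain. Cox6a1 (ENSMUSG00000041697, chr5:115345642-115348981, minus strand), the common isoform of subunit 6a, had 3823, 3941 and 3731 in WT and 4385, 4329 and 4237 in Ccdc117ko. It rose by 0.17 on the log2 scale (SE 0.04, limma adjusted p = 0.0373), and 12.3% of its words are shared with another gene model.

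**Figure D2:**
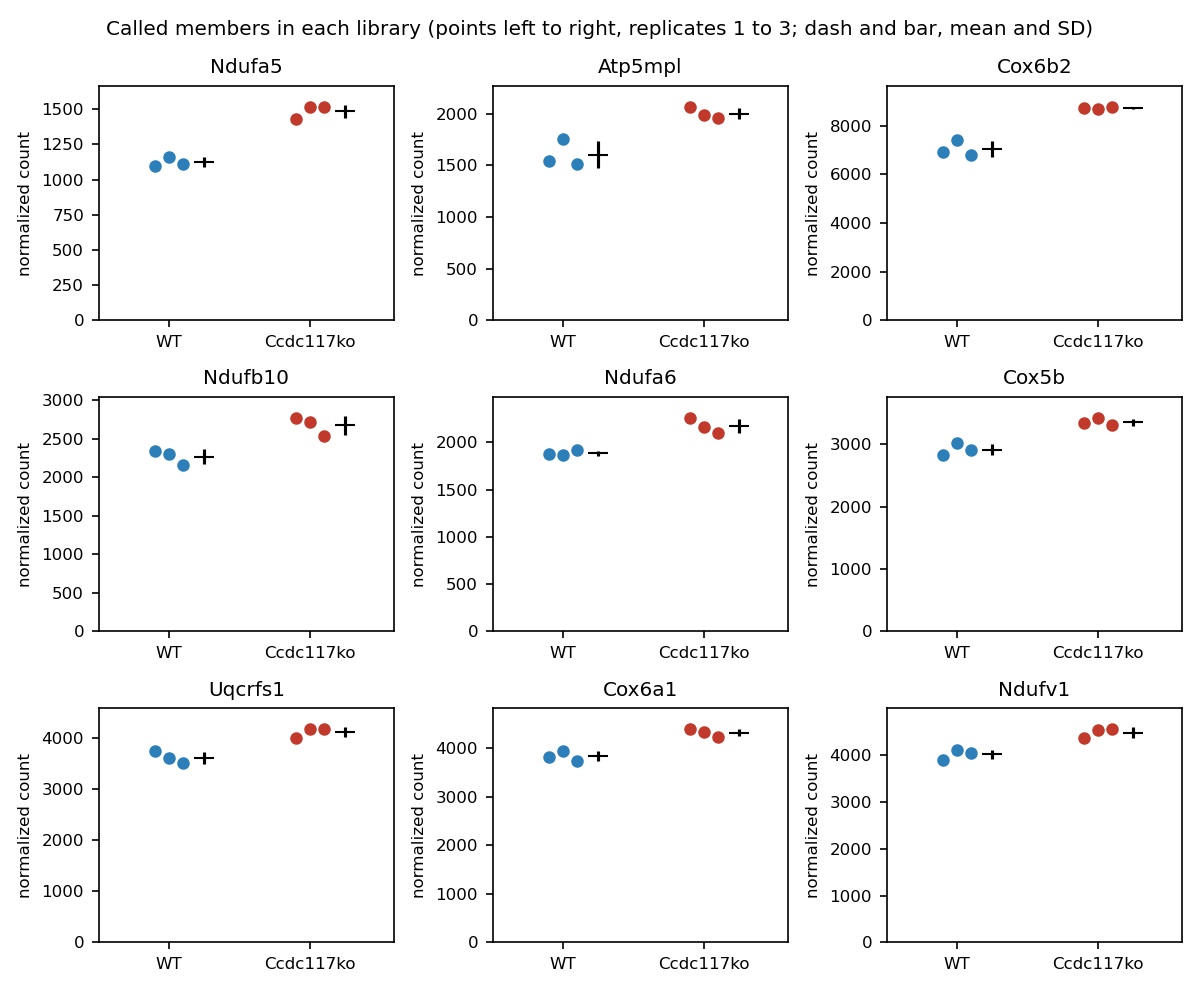
Normalized counts (y axis, from 0) of the 9 called members in each library; points are WT (blue) and Ccdc117ko (red) replicates 1 to 3 from left to right, and the black dash and bar give the mean and SD. In every panel the 3 Ccdc117ko points lie above the 3 WT points.

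Cox6b2 was the called member of the 3 testis isoforms of complex IV. Cox7b2, the testis isoform of subunit 7b, had 3224, 3780 and 3384 normalized counts in WT and 3808, 3742 and 3722 in Ccdc117ko (log2 fold change 0.12, limma adjusted p = 0.272). Cox8c, the testis isoform of subunit 8, had 7808, 9297 and 8441 in WT and 9509, 9037 and 8989 in Ccdc117ko (log2 fold change 0.11, adjusted p = 0.336). For both, WT replicate 2 lay within the range of the Ccdc117ko libraries. Cox8c was the most abundant member of the whole set per kilobase, with 18590 ± 1631 normalized counts per kilobase in WT and 20040 ± 627 in Ccdc117ko.

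The testis isoforms far outnumbered their common counterparts in both genotypes. Per kilobase, Cox6b2 took 92.8%, 93.1% and 93.5% of the Cox6b1 and Cox6b2 signal in WT and 94.3%, 94.1% and 94.3% in Ccdc117ko, without overlap. Cox6b1 itself had 548 ± 44.1 and 565 ± 8.35 normalized counts (SD, n = 3 each; log2 fold change 0.05, limma adjusted p = 0.759). Cox7b2 took 97.5% ± 0.607 of its pair with Cox7b in WT and 97.7% ± 0.283 in Ccdc117ko, and Cox8c took 94.0% ± 0.729 and 94.1% ± 0.144 of its pair with Cox8a. The shares of these 2 pairs differed by less than their SDs. The shares are descriptions, since 3 against 3 libraries were not tested for them.

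**Figure D3:**
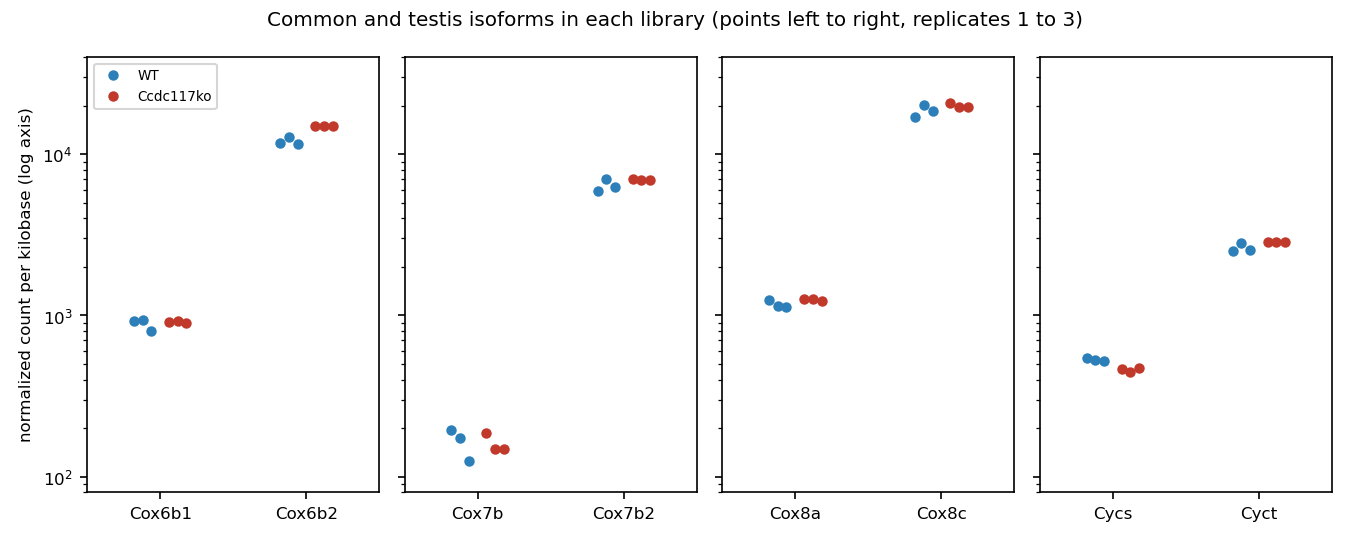
Normalized counts per kilobase of the longest coding transcript (y axis, log) for 3 isoform pairs of complex IV and for cytochrome c, common form on the left and testis form on the right; points are replicates 1 to 3 of WT (blue) and Ccdc117ko (red). Each testis form lies above its counterpart in all 6 libraries.

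The isoforms known from heart, muscle and lung were near the floor of the data. Cox6a2 had 5.43, 0 and 2.95 normalized counts in WT and 2.0, 4.07 and 0 in Ccdc117ko, and Cox4i2 had 9.05 ± 3.35 and 8.74 ± 2.57 (SD, n = 3 each). Cox7a1 had 30.4, 25.1 and 11.8 in WT and 28.0, 33.5 and 21.2 in Ccdc117ko, with wide overlap. Of their common counterparts, Cox6a1 is given above, and Cox4i1 (7825 ± 319 and 8306 ± 133) and Cox7a2 (5280 ± 290 and 5633 ± 306) were not called. None of the 6 muscle and brown fat markers was called by limma, and their sums were 681 to 858 in WT and 683 to 853 in Ccdc117ko. At an unadjusted limma p under 0.05, 0 of them were higher and 1 lower, beside 3633 higher and 3803 lower of all 32783 genes tested.

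The subunits of complex IV with a single form were Cox5a, Cox5b, Cox6c and Cox7c, beside Ndufa4. Cox5a had 5131, 5263 and 5036 normalized counts in WT and 5745, 5515 and 5192 in Ccdc117ko (log2 fold change 0.09, limma adjusted p = 0.277), and its groups overlapped through WT replicate 2. Cox7c was at 0.13 (adjusted p = 0.218) and Cox6c at 0.06 (adjusted p = 0.489). Between 13.9% and 32% of the words of Cox5a, Cox6c and Cox7c occur in other genes, so their counts are less certain.

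Ndufa4, a complex IV subunit first assigned to complex I, and its paralogue Ndufa4l2 were both present. Ndufa4l2 had 1363, 1294 and 1239 normalized counts in WT and 1717, 1468 and 1512 in Ccdc117ko, without overlap (log2 fold change 0.27, SE 0.07, limma adjusted p = 0.0615). Ndufa4 had 464 ± 8.75 and 479 ± 54.4 (SD, n = 3 each) and overlapped. The share of Ndufa4l2 in the pair per kilobase was 64.6% ± 1.16 in WT and 68.1% ± 1.02 in Ccdc117ko. Cox7a2l, which links complexes III and IV, had a log2 fold change of 0.05 (adjusted p = 0.526).

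In complex V, 1 of 17 members was called higher and 13 were above 0 (median 0.11). The call is 5.88% of the complex, near the 3.70% of all tested genes called higher. Atp5mpl (ENSMUSG00000021290, chr12:111961375-111966977, minus strand) encodes a small proteolipid of the membrane part. It had 1542, 1755 and 1514 normalized counts in WT and 2062, 1985 and 1954 in Ccdc117ko, and WT replicate 2 stood nearer the Ccdc117ko group than the other WT libraries. The mean rose from 1604 ± 131 to 2000 ± 55.5 (SD, n = 3 each; log2 fold change 0.32, SE 0.06, limma adjusted p = 0.0287). Among genes averaging 10 or more normalized counts it was called in 6 of 6 fits that left 1 library out. All 5 small membrane subunits had fold changes above 0, with a median of 0.18. Of these 5, 4 had no overlap with Ccdc117ko above WT, as did 13.7% of all tested genes.

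Of the 5 members of the catalytic head of the ATP synthase, 3 had fold changes above 0. Atp5b, the catalytic beta subunit and the most abundant member of complex V per kilobase, had means of 23210 ± 263 normalized counts in WT and 22770 ± 20.3 in Ccdc117ko (log2 fold change -0.03, SE 0.03, limma adjusted p = 0.612). Atp5a1, the alpha subunit, had a log2 fold change of -0.04 (adjusted p = 0.561). Atp5c1, the gamma subunit of the rotor, was at 0.07 (adjusted p = 0.314). The small rotor subunits delta and epsilon were at 0.19 for Atp5d (adjusted p = 0.0708) and 0.24 for Atp5e (adjusted p = 0.111). The 3 genes for subunit c, whose mature proteins are identical, differed in sign: 0.14 for Atp5g1 (adjusted p = 0.171), -0.01 for Atp5g2 and -0.03 for Atp5g3.

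The other small membrane subunits of complex V are Atp5md, Atp5l, Atp5j2 and Atp5k, which take part in the dimers of the enzyme. Atp5md had 857, 898 and 852 normalized counts in WT and 1060, 1005 and 943 in Ccdc117ko, without overlap (log2 fold change 0.21, SE 0.06, limma adjusted p = 0.0809). Atp5l was at 0.16 (adjusted p = 0.126) with 84.8% of its words shared with other genes, Atp5j2 at 0.11 (adjusted p = 0.193) and Atp5k at 0.18 (adjusted p = 0.501). Atp5k overlapped between the groups.

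The peripheral stalk, which holds the head still against the rotor, had 4 members above 0 with a median of 0.08. Atp5h had 2699, 2774 and 2692 normalized counts in WT and 3051, 2999 and 2860 in Ccdc117ko, without overlap (log2 fold change 0.13, SE 0.04, limma adjusted p = 0.112). Atp5j was at 0.10, Atp5pb at 0.06 and Atp5o at 0.03. Of the words of Atp5h, Atp5pb and Atp5o, 38.7% to 50.3% are shared with other genes.

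Members with shorter transcripts had larger median fold changes. The members are short, with a median of 823.5 bases for the longest coding transcript, against 2819 for all protein-coding genes tested. Of 54 members under 1000 bases 7 were called higher, with a median log2 fold change of 0.12. Of 13 members from 1000 to under 1500 bases 1 was called (median 0.08), and of 21 members of at least 1500 bases 1 was called (median 0.06). From short to long the calls are 13.0%, 7.69% and 4.76% of the members, where 3.70% of all tested genes were called higher. A split of all tested genes by length is not given here. Across the 84 members averaging 10 or more normalized counts, the log2 fold change and log2 length had a Spearman rho of -0.434 and a Pearson r of -0.429. Over all 88 members these were -0.316 and -0.177. These points are genes of the same 6 libraries, not independent replicates.

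After a correction of every library for transcript length and GC content, 3 members were called higher and 0 lower: Ndufa5, Cox6b2 and Atp5g1. Of all genes in that fit 4.38% were called higher and 1.29% lower. An unadjusted limma p under 0.05 was found for 22 of the 88 members and for 6557 of all 32704 genes. The median log2 fold change of the members fell from 0.10 to 0.05, with 66 of 88 above 0, beside a median of 0.017 for all genes in that fit. Ndufa5 was at 0.34 (limma adjusted p = 0.0117) and Cox6b2 at 0.24 (adjusted p = 0.0190). The other 7 calls were lost, with adjusted p from 0.0515 for Atp5mpl to 0.149 for Cox6a1. The call of Atp5g1 (0.24, adjusted p = 0.0479) rests on a transcript of 4715 bases and is lost when the shortest principal transcript is used, while Ndufa5 and Cox6b2 are called with both. That fit called 4.23% of all genes higher and 1.31% lower. Among genes averaging 10 or more normalized counts, the correction left 11 of 84 members higher and 1, Uqcrc2, lower, where 9.24% of all genes in that fit were higher and 3.46% lower. Of the 88 members 10 changed sign with the correction, none of them called: Ndufb3, Ndufb11, Sdhd, Uqcrb, Cox6b1, Cox6c, Cox7a2l, Ndufa4 and Atp5o went from above to below 0, and Atp5a1 from below to above.

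**Figure D4:**
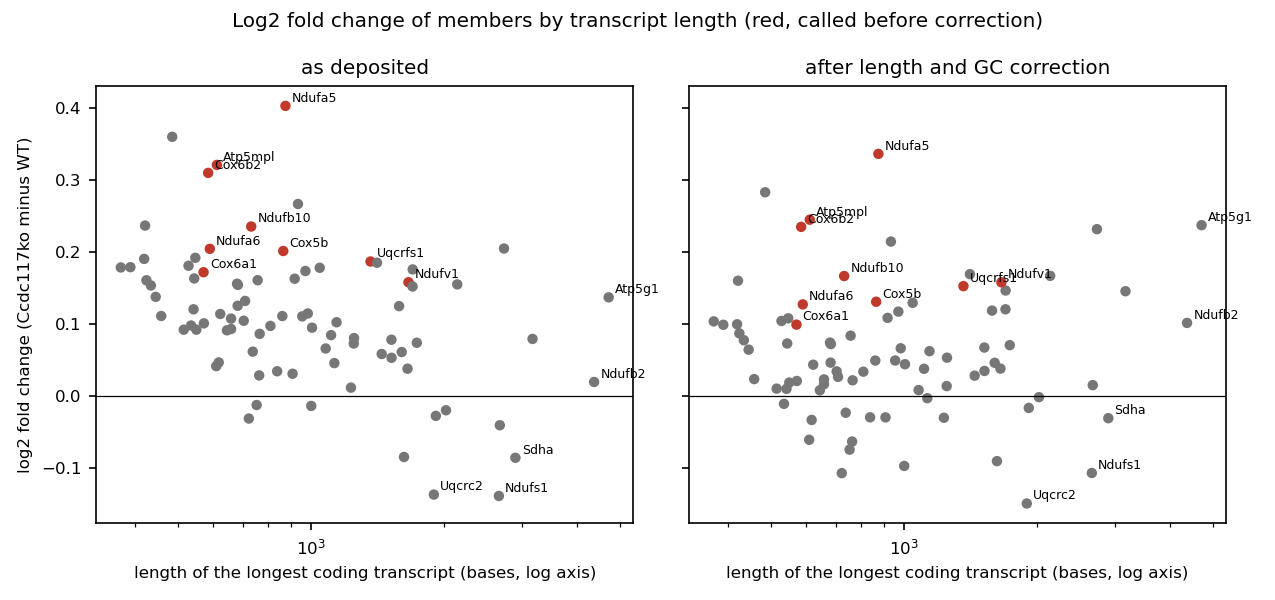
Log2 fold change (y axis, Ccdc117ko minus WT) against the length of the longest coding transcript (x axis, log) for 84 members, before (left) and after (right) the correction for length and GC content; red points are the 9 members called before correction. The points come down on the short side after correction, and Ndufa5 stays the highest.

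Genes around the chain gave a mixed picture. Among assembly factors, which build the complexes and are not part of them, 2 of 16 for complex I, 0 of 4 for complex II, 2 of 6 for complex III, 1 of 23 for complex IV and 1 of 4 for complex V were called higher, and none was called lower. Over all tested genes 3.70% were called higher and 3.10% lower. At an unadjusted limma p under 0.05, 2, 1, 2, 3 and 2 factors of complexes I to V were higher, and 2 factors of complex IV were lower. Of all 32783 genes tested, 3633 were higher and 3803 lower at that level. Lyrm7, a chaperone that hands the Rieske protein to complex III, had 1327, 1310 and 1281 normalized counts in WT and 1776, 1745 and 1707 in Ccdc117ko. It rose by 0.42 on the log2 scale (SE 0.04, limma adjusted p = 0.00948), and Uqcc1, a factor for cytochrome b, by 0.25 (adjusted p = 0.0273). Nubpl, which delivers iron-sulphur clusters to complex I, rose from 415 ± 5.49 to 552 ± 32.3 (log2 fold change 0.41, adjusted p = 0.0187), and Ndufaf2 by 0.22 (adjusted p = 0.0301). Coa4 of complex IV assembly rose by 0.45 (adjusted p = 0.0216), and Atpaf1, which binds the beta subunit of the ATP synthase, by 0.25 (adjusted p = 0.0366).

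The log2 fold changes of these 6 assembly genes stayed above 0 with each library left out, from 0.40 to 0.43 for Lyrm7, 0.20 to 0.24 for Ndufaf2 and 0.40 to 0.52 for Coa4. Lyrm7 and Nubpl were still called without WT replicate 1, at adjusted p of 0.0342 and 0.0461. None of the 6 was called in the other 5 fits, which called few genes in all, and Ndufaf2, Uqcc1, Coa4 and Atpaf1 were not called without WT replicate 1 either. Among genes averaging 10 or more normalized counts, Lyrm7, Nubpl, Uqcc1 and Coa4 were called in 6 of 6 such fits, Ndufaf2 in 4 and Atpaf1 in 1. After the length and GC correction Ndufaf2 was no longer called (adjusted p = 0.144).

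The 13 subunits made from mitochondrial DNA had mostly negative fold changes. Their median log2 fold change was -0.07, with 2 of 13 above 0. Of the 13, 1 was called higher and 1 lower, where 3.70% of all tested genes were higher and 3.10% lower. mt-Nd5 fell from 35220 ± 1073 to 29600 ± 1039 normalized counts (log2 fold change -0.25, SE 0.04, limma adjusted p = 0.0169), and mt-Nd3 rose from 2083 ± 67.8 to 2674 ± 234 (log2 fold change 0.36, SE 0.07, adjusted p = 0.0253), both SD with n = 3. Both are subunits of complex I. The summed level of the 13 was 633053 to 666599 in WT and 604602 to 647636 in Ccdc117ko, with overlap. After correction for length and GC content, 4 were called lower, mt-Nd3 was no longer called higher (adjusted p = 0.0943) and the median was -0.15. Neither gene was called in the fit of all tested genes without any 1 of the 6 libraries (adjusted p 0.0520 to 0.107 for mt-Nd5 and 0.0703 to 0.137 for mt-Nd3), and both were called in 6 of 6 such fits among genes averaging 10 or more normalized counts.

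The 2 forms of cytochrome c, which lie outside the set, had fold changes of opposite sign. Cycs, the form of all cells, had 1706, 1657 and 1636 normalized counts in WT and 1461, 1387 and 1466 in Ccdc117ko and fell by 0.21 on the log2 scale (SE 0.04, limma adjusted p = 0.0348). It was not called in the fits of all tested genes that left out any 1 library (adjusted p 0.0675 to 0.120), nor after the length and GC correction (-0.17, adjusted p = 0.0739). Cyct, the testis form, had 1635, 1830 and 1677 in WT and 1882, 1860 and 1865 in Ccdc117ko (log2 fold change 0.13, adjusted p = 0.195). The share of Cyct in the pair per kilobase was 83.0% ± 0.996 in WT and 86.1% ± 0.327 in Ccdc117ko, without overlap.

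Of 12 regulators of respiratory chain genes, Pprc1, a coactivator of the PGC-1 family, was called lower (606 ± 12 to 506 ± 13.4 normalized counts, log2 fold change -0.26, limma adjusted p = 0.0361). That is 1 lower and 0 higher of 12, where 3.10% of all tested genes were called lower and 3.70% higher. The median of the 12 was -0.03. With the length and GC correction Pprc1 was no longer called (-0.13, adjusted p = 0.241), Nrf1 was called higher (0.31, adjusted p = 0.0476; 0.111 by the shortest principal transcript), and the median of the 12 turned to 0.05. Ppargc1a, the PGC-1 alpha gene, had 106, 115 and 116 normalized counts in WT and 89.9, 83.3 and 80.6 in Ccdc117ko (log2 fold change -0.41, adjusted p = 0.0824). Nrf1, which binds promoters of many respiratory genes, had 1125, 925 and 966 in WT and 1140, 1190 and 1180 in Ccdc117ko (log2 fold change 0.22, adjusted p = 0.125, and 0.0398 without WT replicate 1). Among 18 genes of the citric acid cycle and pyruvate dehydrogenase, Pdha2, the testis form of the E1 alpha subunit, was called higher (log2 fold change 0.15, adjusted p = 0.0432), and the median was -0.0076. Among 78 genes listed as mitochondrial ribosomal proteins by their Mrpl or Mrps symbol, Mrpl28 and Mrps36 were called higher. The calls are 5.56% of the 18 and 2.56% of the 78, where 3.70% of all tested genes were called higher. Of the 78 genes 62 were above 0, against 50.2% of all genes tested, with a median of 0.08. The symbol alone does not settle what each of them encodes. Of Pprc1, Pdha2, Mrpl28 and Mrps36, none was called in the fits of all tested genes that left out any 1 library. With the length and GC correction Pdha2 was still called, and Mrpl28 and Mrps36 were not.

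**Figure D5:**
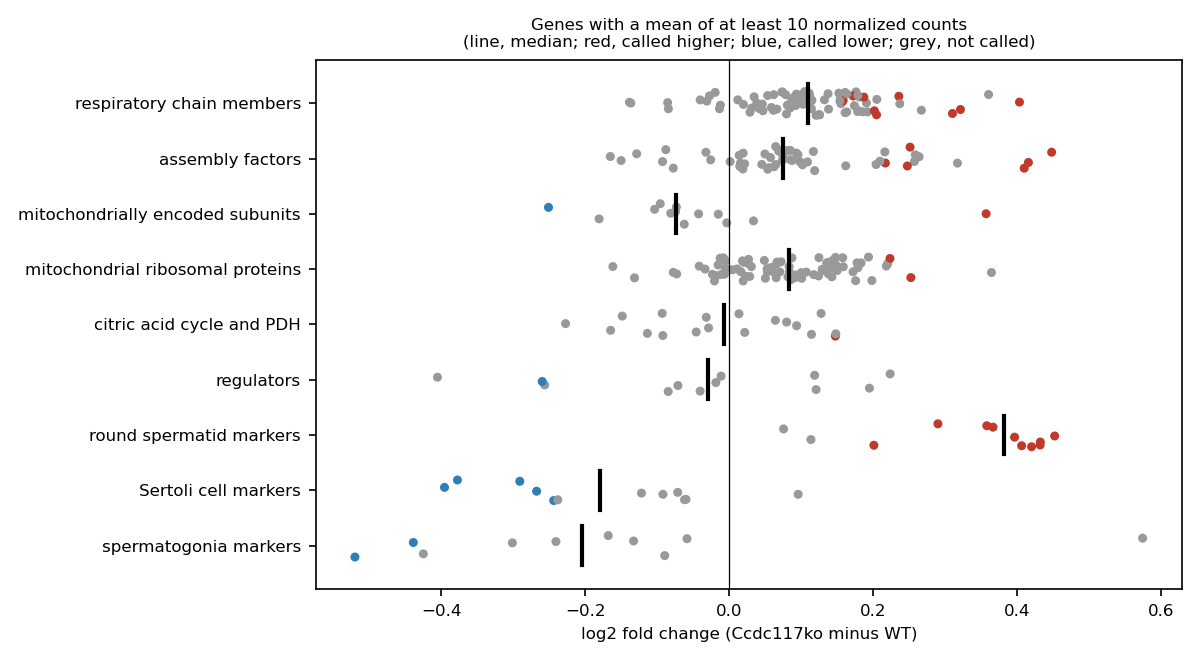
Log2 fold change (x axis, Ccdc117ko minus WT) of genes averaging 10 or more normalized counts in 9 gene groups; points are genes with vertical scatter for legibility, the black line is the median, and red and blue mark genes called higher and lower. Round spermatid markers have the highest median, 0.38, and the assembly factors and mitochondrial ribosomal proteins have medians above 0, as the members do.

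Promoters of the members were searched for 4 short words on both strands. RefSeq windows from 250 bases before to 50 after the gene start (build GRCm38.p6) were matched for 67 of the 88 members, 72 windows in all, beside 32851 windows of all genes. The NRF1 word, GCGCA followed by any base and GCGC, was in 25% of the members' windows and 4.60% of all windows. The YY1 word AAGATGGC was in 13.9% and 2.75%, the ETS word CCGGAAGT, bound by GABPA, in 6.94% and 3.89%, and the cAMP response element TGACGTCA in 5.56% and 1.79%. A match is a description of the letters and not a bound site. The 17 members with the NRF1 word had 3 called higher and a median log2 fold change of 0.13, and the 50 without it had 5 called higher and a median of 0.12. The 3 are Ndufa5, Ndufa6 and Cox6a1.

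The stretches below run 5′ to 3′ on the gene's minus strand and are credited to RefSeq. They show 3 called members with a word before the RefSeq start, and the subunit 6b pair. Capitals mark the NRF1 word in Ndufa5 and Cox6a1 and the cAMP response element in Uqcrfs1. Ndufa5 (chr6:24527697-24527726) and Uqcrfs1 (chr13:30545327-30545356) are shown as sites of 30 bases, and Cox6a1 (chr5:115348982-115349128), Cox6b2 (chr7:4753095-4753225) and Cox6b1 (chr7:30626152-30626284) as the part outside annotated exons.
Ndufa5: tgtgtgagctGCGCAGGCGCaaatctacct
Cox6a1: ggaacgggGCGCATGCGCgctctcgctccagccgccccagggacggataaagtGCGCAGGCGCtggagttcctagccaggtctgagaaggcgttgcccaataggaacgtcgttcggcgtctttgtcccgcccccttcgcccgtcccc
Uqcrfs1: cggcgtcgcgcTGACGTCAcaaaccctgcg
Cox6b2: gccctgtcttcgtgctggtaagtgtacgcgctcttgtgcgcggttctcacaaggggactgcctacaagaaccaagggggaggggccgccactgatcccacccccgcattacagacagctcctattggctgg
Cox6b1: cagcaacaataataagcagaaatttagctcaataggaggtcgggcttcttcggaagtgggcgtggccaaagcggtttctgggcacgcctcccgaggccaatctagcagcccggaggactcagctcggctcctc
Cox6a1 held the NRF1 word at 2 places, 162 and 117 bases before its start, and Ndufa5 held it 26 bases before the farther upstream of its 2 RefSeq starts and 190 before the other, inside the first exon of the longer GENCODE gene. The cAMP response element of Uqcrfs1 lies 29 bases before its RefSeq start, but inside the longer GENCODE gene. In Ndufa6 the NRF1 word lies after the start, and its sequence is not shown. The windows of Cox6b2 and Cox6b1 held none of the 4 words.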

How the data were processed

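Per the labels' protocols, TRIzol RNA was treated with DNase and libraries were stranded and selected for mRNA. STAR, DESeq2 and mm10 appear in the submitters' processing notes; what each did, and how reads were counted and stranded, is not given in the sources used here. A single table deposited by the authors gives a log2 value per gene and library, read here as log2(normalized count + 1): undoing it gave whole multiples of 1 step per library for 100% of values under 500 reads, within 0.01. The table also holds the authors' log2 fold change, p-value and FDR, used only where credited.

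As the values are log2 and not counts, limma-trend (limma 3.58.1, R 4.3.3) was fitted with genotype as the only term to 32783 genes averaging 0.5 or more normalized counts, two-sided, with Benjamini-Hochberg adjustment over all of them. Fold changes on this scale understate those of low genes. Lengths, coordinates and shared 50-base words came from GENCODE M21 (mm10). For the length and GC correction, each library's deviation from the gene mean was fitted with splines of log2 length and GC (knots at the 25, 50 and 75 percentiles) and the fit removed. No libraries were duplicates (chi-square per degree of freedom 4.68 to 7.50). On simulated reads for this comparison (32476 genes, changed genes with high counts) limma recovered 82% of 1.25-fold changes and 100% of 1.5-fold ones, with a mean of 4 false calls. Folds under 1.25 were not simulated. Most called members changed by less, such as Ndufv1 (1.12-fold) and Cox6b2 (1.24-fold), so these rates do not cover them.

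The members and gene lists were chosen with earlier results of these data known. Genes named are the called members, complex IV and V isoforms, iron-sulphur subunits, X-linked members, the most abundant member per kilobase of each complex and up to 2 genes per surrounding list. Uqcrc2, Sdha, Atp5a1, Atp5d, Atp5e, Ndufa4, Ndufa4l2, Ndufs4 and many other members outside these rules were named after their values were seen. So were the regulators Ppargc1a and Nrf1. The values of 1 member are not reported here.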

Additional observations from a re-analysis of the deposited data

How the results depend on the processing

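The count of members called was 9 higher, where 3.70% of all tested genes were higher and 3.10% lower. It became 18 among genes averaging 10 or more normalized counts, with 8.35% of all genes so tested higher and 8.25% lower. With at least 1 CPM in 3 libraries it was 20 (19 higher, 1 lower). Of all 18522 genes in that fit 2048 were higher and 2079 lower. It was 3 with the length and GC correction and 2 with that correction by the shortest principal transcript. Those fits called 4.38% and 4.23% of all genes higher. The shortest principal transcript was an alternative chosen after the data were seen. Leaving out 1 library gave 0 to 3. Among genes averaging 10 or more normalized counts it was 18, and 4 to 15 with 1 library left out. The lowest counts were 5 without WT replicate 3, 7 without Ccdc117ko replicate 1 and 4 without Ccdc117ko replicate 2, all higher. Of all 22878 genes, those fits called 1044, 1445 and 936 higher and 822, 1394 and 778 lower, in that order. Without WT replicate 1 it was 13 higher and 2 lower, beside 2041 higher and 1980 lower of all genes. With the correction it was 12 (11 higher, 1 lower), where 9.24% of all genes in that fit were higher and 3.46% lower. These fits too were chosen after the data were seen. The other filters, pseudocounts and scalings gave 6 to 9, and over all genes 1032 to 1218 higher and 846 to 1152 lower. The cause of these differences was not tested. The median log2 fold change, 0.10, was 0.0465 with the length and GC correction and 0.0461 by the shortest principal transcript, and 0.0925 to 0.1365 with 1 library left out.

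The replicate numbers do not pair the libraries: same-numbered libraries had correlations of -0.0033, -0.0039 and 0.0061. With the replicate number as a block 2 members were called, Ndufa5 and Cox6b2, where 364 of 32783 genes were higher and 339 lower. With the block and the length and GC correction 0 members were called, with a median of 0.0465. That fit called 14 genes higher and 13 lower in all. At an unadjusted limma p under 0.05 it had 20 members, and 5943 of all 32704 genes.

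Reversals of sign concerned members that were not called. Of all 88 members, 10 reversed with the length and GC correction and are named in the results. Among the genes named by rule, with that correction and with or without the block, Cox6b1 was at -0.033, Cox7a2l at -0.0028 and Ndufb11 at -0.029, and by the shortest principal transcript at -0.032, -0.0035 and -0.027. With 1 library left out, log2 fold changes ran from -0.037 to 0.033 for Atp5g2, -0.066 to 0.0030 for Atp5g3, -0.32 to 0.20 for Cox4i2, -1.02 to 0.41 for Cox6a2, -0.021 to 0.088 for Cox6b1, -0.027 to 0.62 for Cox7a1, -0.20 to 0.12 for Cox7b and -0.0048 to 0.087 for Ndufb11. The 9 called members kept their sign in every such fit. Depth limits Cox6a2, Cox6c2, Cox4i2 and Ndufs6b, all under 10 normalized counts.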
